A study of Mus musculus with 11 samples.

Results

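The Lgi genes and the ADAM genes that serve as their receptors were followed across 11 arrays of NSC34 cells, a mouse line made by fusing neuroblastoma with spinal cord motor neurons. The set held 7 of the 15803 genes measured: the 4 Lgi genes (Lgi1, Lgi2, Lgi3 and Lgi4) and the 3 receptor genes (Adam22, Adam23 and Adam11). They were taken by symbol, from the 121 probe sets that the platform annotation gives exactly 1 of these names. Lgi1 was chosen by its log2 values themselves, for the large rise in Tardbp-depleted cells, so its values in that comparison are a description and carry no test. The other 6 genes were tested.

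The arrays fell into 3 groups of stable NSC34 lines, each made with a pSUPERIOR hairpin vector and puromycin selection. The shTardbp group (4 arrays, numbered 1 to 4) expressed a hairpin targeting Tardbp, which encodes TDP-43, an RNA-binding protein. The shGFP group (4 arrays, numbered 1, 2, 3 and 5) carried a control hairpin against GFP, and the shLuciferase group (3 arrays, numbered 1, 2 and 4) one against Renilla luciferase. The labels speak of stable clones but do not say how many stand behind a group or whether its arrays came from separate cultures. The p-values then cover just the spread among these arrays, which could be technical. Values are log2 signals, and a gene's value is the mean over its probe sets.

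LGI proteins are secreted, with leucine-rich repeats and a propeller of epitempin (EPTP) repeats, and bind on the cell surface to ADAM22, ADAM23 and ADAM11, members of the ADAM metalloprotease family that have lost protease activity. At brain synapses LGI1 bridges ADAM22 and ADAM23 and, through the PSD-95 scaffold, is tied to AMPA receptors and Kv1 potassium channels. Mutations of LGI1 cause an inherited lateral temporal lobe epilepsy, and autoantibodies against it cause limbic encephalitis, whereas LGI4 acts with ADAM22 in the myelination of peripheral nerve.

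The hairpin was directed at a stretch of Tardbp given in the labels, shown because it defines the depleted group.
Tardbp hairpin target: tctaagcaaagccccagacgagcct
Tardbp itself was at 8.82, 8.80, 9.00 and 8.91 in shTardbp 1 to 4, against 9.25, 9.08, 9.36 and 9.42 in shGFP and 9.29, 9.38 and 9.20 in shLuciferase. All 4 shTardbp arrays lay below all 7 control arrays. The log2 difference from the mean of both control groups was -0.40 (SE 0.0722, limma adjusted p = 0.000713), which left 75.8% of the control signal. The 4 shTardbp arrays and shLuciferase 4 have sample codes with the letter P, the remaining 6 have the letter C, and the labels give no meaning for it. Blocking on this code letter, the Tardbp difference was -0.29 and did not pass the threshold (limma adjusted p = 0.173). Array medians ran from 6.82 to 6.92.

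The upstream sequences of Lgi1 and Adam22 are shown because these genes were both high in all 4 shTardbp arrays. RefSeq's promoter table for GRCm38.p6 held 4 of the 7 genes (Lgi1, Lgi2, Adam22 and Adam23). Each line gives the 250 bases before the annotated start, 5′ to 3′ on the strand of the gene, at chr19:38264437-38264686 (+) for Lgi1 and chr5:8368161-8368410 (-) for Adam22, and capitals mark matches to GGGCGG, the GC box, on either strand.
Lgi1: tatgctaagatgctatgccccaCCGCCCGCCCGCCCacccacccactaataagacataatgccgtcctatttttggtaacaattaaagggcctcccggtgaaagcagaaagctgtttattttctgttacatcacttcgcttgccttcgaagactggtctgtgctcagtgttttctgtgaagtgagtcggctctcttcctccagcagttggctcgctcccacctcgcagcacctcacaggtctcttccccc
Adam22: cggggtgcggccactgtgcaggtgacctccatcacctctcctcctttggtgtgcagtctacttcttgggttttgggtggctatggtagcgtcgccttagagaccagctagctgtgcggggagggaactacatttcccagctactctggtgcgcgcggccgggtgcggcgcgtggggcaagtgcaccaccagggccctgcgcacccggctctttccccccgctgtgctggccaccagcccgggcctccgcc
The 300 bases that run on to 50 past the start were searched on both strands. GGGCGG occurred 3 times in Lgi1, as overlapping matches on the other strand at positions -228, -224 and -220 from the start, and 2 times in Lgi2. It was not found in the windows of Adam22 or Adam23, and 35.7% of all 32851 promoters in the table held it. CCAAT (37.4% of all promoters) occurred 1 time in Lgi2 only, and TGTGTG (21.1%), TATAAA (13.6%), CACGTG (7.15%) and TGACGT (7.51%) in none of the 4. No match of one motif overlapped a match of another. Guanine and cytosine made up 54% of the Lgi1 window and 66.3% of the Adam22 window, against a median of 52.7% over all promoters.

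The first comparison asked how the ligand genes differed between Tardbp-depleted cells and the controls. Lgi1 and Lgi3 were high in the depleted cells whichever control they were set against. Lgi2 was lower than in shGFP and did not pass the test against shLuciferase, and Lgi4 was close to the low end of the array signal in every group.

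Lgi1 encodes the ligand that links pre- and postsynaptic receptors. Lgi1 was at 9.50, 9.74, 9.53 and 9.52 in shTardbp 1 to 4, against 7.25, 7.46, 7.63 and 7.10 in shGFP 1, 2, 3 and 5 and 7.80, 7.65 and 8.03 in shLuciferase 1, 2 and 4. The lowest shTardbp array lay well above the highest control array, shLuciferase 4. The group means (SD) were 9.57 ± 0.113 (n = 4) for shTardbp, 7.36 ± 0.23 (n = 4) for shGFP and 7.83 ± 0.19 (n = 3) for shLuciferase. A log2 difference of 1.98 separated shTardbp from the mean of both control groups (3.95-fold), the third largest rise of all genes measured. It was 2.22 against shGFP (4.64-fold, again the third) and 1.75 against shLuciferase (3.36-fold, the 13th largest rise there). With the code letter as a block the difference from both controls was 1.73, and within the P arrays shTardbp stood 1.55 above shLuciferase 4. Since RNA was taken from whole cultures, more cells with the transcript and more transcript per cell cannot be told apart, here and for the other genes.

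Lgi3 encodes a related ligand found mainly in brain that binds the same receptors. Lgi3 was at 8.93, 9.11, 8.98 and 8.84 in shTardbp, against 8.12, 8.33, 8.10 and 8.02 in shGFP and 8.54, 8.55 and 8.65 in shLuciferase. All shTardbp arrays lay above all controls, shLuciferase lay between, and no 2 groups overlapped. The difference from both controls was 0.60 (1.52-fold, SE 0.0715, limma adjusted p = 2.36e-05). It was 0.82 against shGFP (SE 0.0804, limma adjusted p = 6e-06) and 0.38 against shLuciferase (SE 0.0868, limma adjusted p = 0.00448). With the code letter as a block the difference from shLuciferase was 0.31 and the call was lost (limma adjusted p = 0.111). Within the P arrays the lowest shTardbp value, 8.84, was above the 8.65 of shLuciferase 4.

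Lgi2, another neuronal family member, did not follow them. Lgi2 was at 6.58, 6.79, 6.48 and 6.56 in shTardbp, against 7.17, 7.28, 7.15 and 7.15 in shGFP and 6.58, 6.63 and 6.64 in shLuciferase. The shTardbp arrays were all below shGFP and spread on both sides of shLuciferase. The difference from both controls was -0.30 (SE 0.0646, limma adjusted p = 0.00269), made up of -0.59 against shGFP (SE 0.0727, limma adjusted p = 4.18e-05) and -0.01 against shLuciferase (95% confidence interval -0.18 to 0.16, limma adjusted p = 0.952). The call against both controls was lost with the code letter as a block (-0.33, limma adjusted p = 0.0907).

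Lgi4, the ligand of peripheral nerve myelination, was at 4.23, 4.09, 4.20 and 4.04 in shTardbp, against 4.03, 4.00, 4.01 and 4.12 in shGFP and 4.14, 4.00 and 4.18 in shLuciferase. These values overlapped and lay under the 25th percentile of all signals of an array, 4.46 to 4.57, in every case, and the files hold no detection calls. The difference from both controls was 0.07 (95% confidence interval -0.06 to 0.20, limma adjusted p = 0.499). It was 0.10 against shGFP (limma adjusted p = 0.354) and 0.04 against shLuciferase (limma adjusted p = 0.832).

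**Figure D1:**
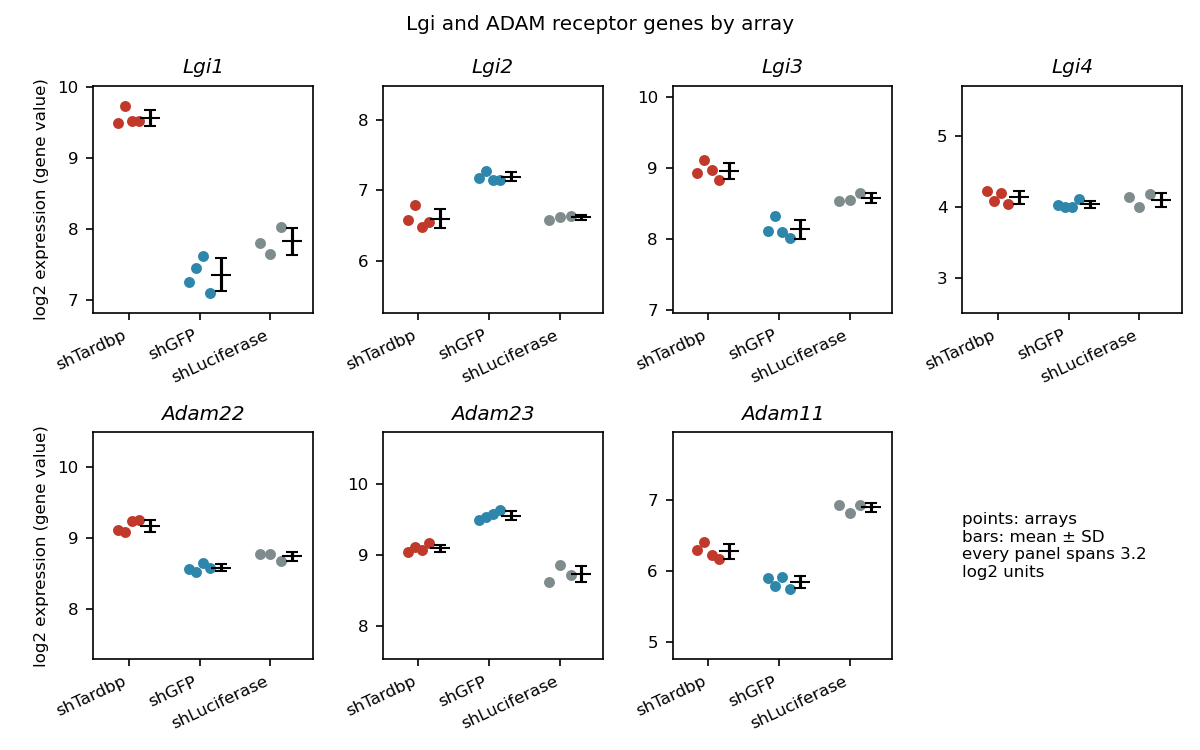
Log2 expression (vertical axes, all of the same span) of the 7 genes in shTardbp, shGFP and shLuciferase arrays; points are arrays and bars are the mean ± SD of a group. All 4 shTardbp points lie above all 7 control points for Lgi1, Lgi3 and Adam22, and for Adam23 and Adam11 they lie between the control groups.

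Of the 3 receptor genes, Adam22 was higher in the depleted cells than in both control lines. Adam23 and Adam11 lay between the control lines, Adam23 below shGFP and above shLuciferase and Adam11 the other way round.

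Adam22 encodes the postsynaptic receptor of LGI1, which anchors to PSD-95 through its cytoplasmic tail. Adam22 was at 9.11, 9.09, 9.24 and 9.25 in shTardbp, against 8.56, 8.52, 8.64 and 8.58 in shGFP and 8.78, 8.77 and 8.67 in shLuciferase. The shTardbp arrays lay above all controls with no overlap, and the 3 groups were each within a narrow range. The difference from both controls was 0.51 (1.43-fold, SE 0.0567, limma adjusted p = 1.29e-05). It was 0.60 against shGFP (SE 0.0637, limma adjusted p = 1.21e-05) and 0.43 against shLuciferase (SE 0.0688, limma adjusted p = 0.000363). The call against both controls was kept under all 10 alternative settings and with any 1 of the 11 arrays left out (0.49 to 0.63, limma adjusted p from 2.48e-06 to 0.00229), and within the P arrays the difference from shLuciferase 4 was 0.50.

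Adam23 encodes a receptor of the presynaptic side and the axon. Adam23 was at 9.04, 9.11, 9.06 and 9.16 in shTardbp, against 9.49, 9.53, 9.57 and 9.63 in shGFP and 8.62, 8.85 and 8.72 in shLuciferase. The 3 groups did not overlap, with shGFP highest and shLuciferase lowest. The difference was -0.46 against shGFP (SE 0.0667, limma adjusted p = 0.000143) and 0.36 against shLuciferase (SE 0.072, limma adjusted p = 0.00188). Against the mean of both it was -0.05 (95% confidence interval -0.18 to 0.08, limma adjusted p = 0.633). When the gene value was the median probe set, the difference from shLuciferase was 0.28 and the call was lost (limma adjusted p = 0.0624).

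Adam11 encodes the receptor enriched at cerebellar inhibitory terminals in mice. Adam11 was at 6.30, 6.41, 6.23 and 6.17 in shTardbp, against 5.90, 5.79, 5.91 and 5.74 in shGFP and 6.93, 6.82 and 6.93 in shLuciferase. Again no 2 groups overlapped, here with shLuciferase highest and shGFP lowest. The difference was 0.44 against shGFP (SE 0.0714, limma adjusted p = 0.000347) and -0.62 against shLuciferase (SE 0.0771, limma adjusted p = 5.14e-05), and -0.09 against the mean of both (95% confidence interval -0.22 to 0.05, limma adjusted p = 0.371). The call against shGFP was lost with the code letter as a block (0.39, limma adjusted p = 0.0991).

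Against both controls, 3 of the 6 tested genes passed the threshold, Lgi3 and Adam22 as higher and Lgi2 as lower, where 30.5% of all genes did (13.5% higher and 17% lower). A fit of only the genes above the median level left out Lgi4 and Adam11. In it 3 tested members (Lgi2, Lgi3 and Adam22) passed and Adam23 did not, where 50.8% of the genes passed. Counting each control alone, 4 of the 6 passed against shGFP and also against shLuciferase, as did 17.6% of all genes, in comparisons that share the shTardbp arrays. Taken singly, 27.9% of all genes passed against shGFP and 26.1% against shLuciferase. Lgi3 and Adam22 were higher against each, as were 7.69% of all genes. Adam23 and Adam11 passed in opposite directions against the controls, as did 77 genes, 0.487% of all. Among the tested genes, all shTardbp arrays lay above all control arrays for Lgi3 and Adam22, where 8.45% of all genes showed this. In the plot of the change against each control, Lgi1, Lgi3 and Adam22 sit in the upper right, where both differences are above 0, and Adam23 and Adam11 in the quadrants where the signs differ.

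**Figure D2:**
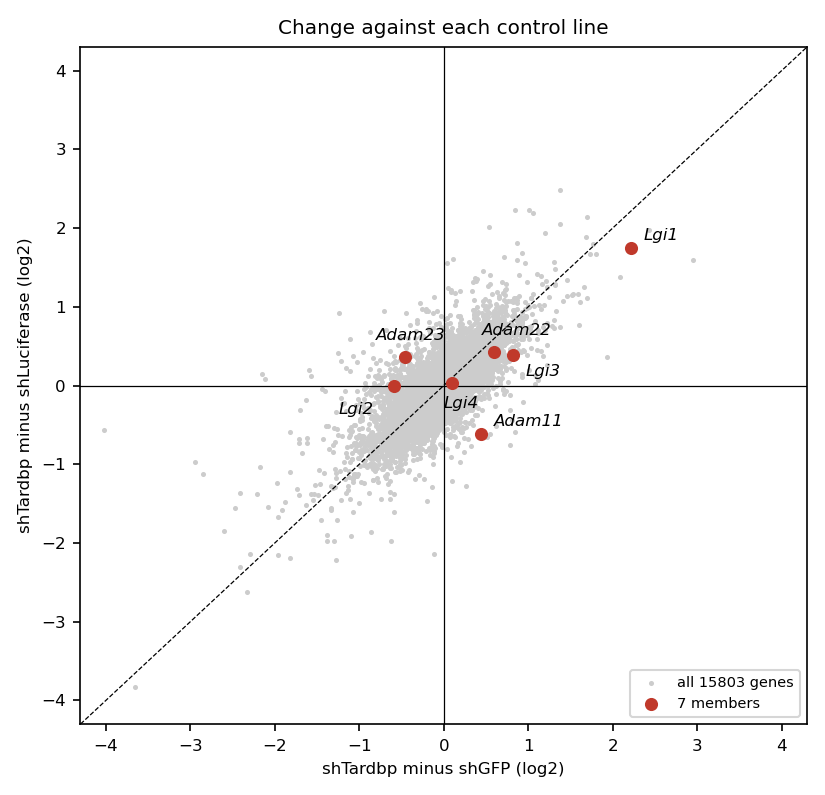
Log2 difference of shTardbp from shGFP (horizontal axis) and from shLuciferase (vertical axis) for all 15803 genes (grey) and the 7 genes described here (red); the dashed line marks equal differences. Lgi1 lies at 2.22 and 1.75, Adam23 at -0.46 and 0.36, and Adam11 at 0.44 and -0.62.

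The second comparison set the control lines against each other, which shows how far these genes vary between NSC34 lines that carry no Tardbp hairpin. Of the 7 genes, 5 passed the threshold, against 11.1% of all genes. Adam23 and Lgi2 were higher in shGFP than in shLuciferase (6.26% of all genes), and Adam11, Lgi1 and Lgi3 lower (4.82%). The fit of only the genes above the median level left out Adam11 and Lgi4. In it 4 members (Adam23, Lgi2, Lgi1 and Lgi3) passed and Adam22 did not, where 19.9% of the genes passed. The arrays of shGFP and shLuciferase did not overlap for 6 of the 7 genes, Lgi4 being the exception, where 20.1% of all genes did not overlap.

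Adam11 differed most. Its mean was 5.84 ± 0.0839 (SD, n = 4) in shGFP and 6.90 ± 0.0627 (n = 3) in shLuciferase, a difference of -1.06 (2.09-fold lower, SE 0.0771, limma adjusted p = 1.51e-06). As shTardbp lay between the controls, this gap was bound to be wider than its distance from either of them. Adam23 averaged 9.55 ± 0.061 in shGFP and 8.73 ± 0.114 in shLuciferase, a difference of 0.82 (1.77-fold, SE 0.072, limma adjusted p = 8.11e-06). Lgi2 averaged 7.19 ± 0.0634 in shGFP and 6.62 ± 0.0319 in shLuciferase, a difference of 0.57 (1.49-fold, SE 0.0785, limma adjusted p = 0.000325). For Lgi2 the gap between the controls was about as wide as the distance of shTardbp from shGFP.

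Lgi3 averaged 8.14 ± 0.133 in shGFP and 8.58 ± 0.0649 in shLuciferase, a difference of -0.44 (SE 0.0868, limma adjusted p = 0.00491). This gap was wider than the 0.38 by which Lgi3 in shTardbp exceeded shLuciferase. When the gene value was the median probe set, the calls of Lgi2 (0.45, limma adjusted p = 0.153) and Lgi3 (-0.34, limma adjusted p = 0.134) were lost. The Lgi1 difference was -0.47 (SE 0.122, 95% confidence interval -0.73 to -0.20, limma adjusted p = 0.0244). That call was lost with the code letter as a block (-0.37, limma adjusted p = 0.105) and without shGFP 1, shGFP 5, shLuciferase 1 or shLuciferase 4, in which order the limma adjusted p was 0.0621, 0.0695, 0.0635 and 0.105. Adam22 (-0.17, 95% confidence interval -0.31 to -0.02, limma adjusted p = 0.162) and Lgi4 (-0.06, limma adjusted p = 0.735) did not pass. Within the C arrays alone, shGFP minus the mean of shLuciferase 1 and 2 was -1.04 for Adam11, 0.82 for Adam23, 0.59 for Lgi2, -0.40 for Lgi3 and -0.37 for Lgi1.

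Single probe sets were set beside the gene values, to show whether the parts of a gene moved alike. All 6 Lgi1 probe sets had all 4 shTardbp arrays above all 7 control arrays, with differences from both controls of 1.18 to 2.38. The smallest of these belonged to a probe set that averaged 5.60 in shTardbp, 4.48 in shGFP and 4.35 in shLuciferase. The largest belonged to one that averaged 10.64 in shTardbp, 7.77 in shGFP and 8.74 in shLuciferase.

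All 11 Lgi3 probe sets were higher in shTardbp than in each control (0.18 to 0.90 against both, median 0.63), and 7 of them did not overlap with the controls. For Adam22, 26 of 30 probe sets were higher than each control and 22 of 30 did not overlap, with differences from -0.22 to 0.76 and a median of 0.61. Over all probe sets with 1 gene name, 5.43% lay above all controls in this way. The 4 Adam22 probe sets that did not share the rise had differences of -0.22, -0.07, 0.02 and 0.06 and mean levels over all arrays of 4.59 to 6.58.

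For Adam23 all 28 probe sets lay between the control lines, below shGFP by log2 differences of -0.73 to -0.12 and above shLuciferase by 0.13 to 0.56. Adam11 lay between them in 24 of 27 probe sets, and 26 of 27 were lower in shGFP than in shLuciferase. For Lgi2, all 9 probe sets were higher in shGFP than in shLuciferase, while 6 were lower in shTardbp than in each control, 1 was higher and 2 lay between. The widest Lgi2 fall was in a probe set that averaged 6.69 in shTardbp, 7.96 in shGFP and 7.22 in shLuciferase (-0.90). Only 2 of the 10 Lgi4 probe sets had a mean above the 25th percentile. The plot of single probe sets shows these patterns as clouds on 1 side of 0 for Lgi1 and Lgi3 and as clouds on opposite sides for Adam23 and Adam11.

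**Figure D3:**
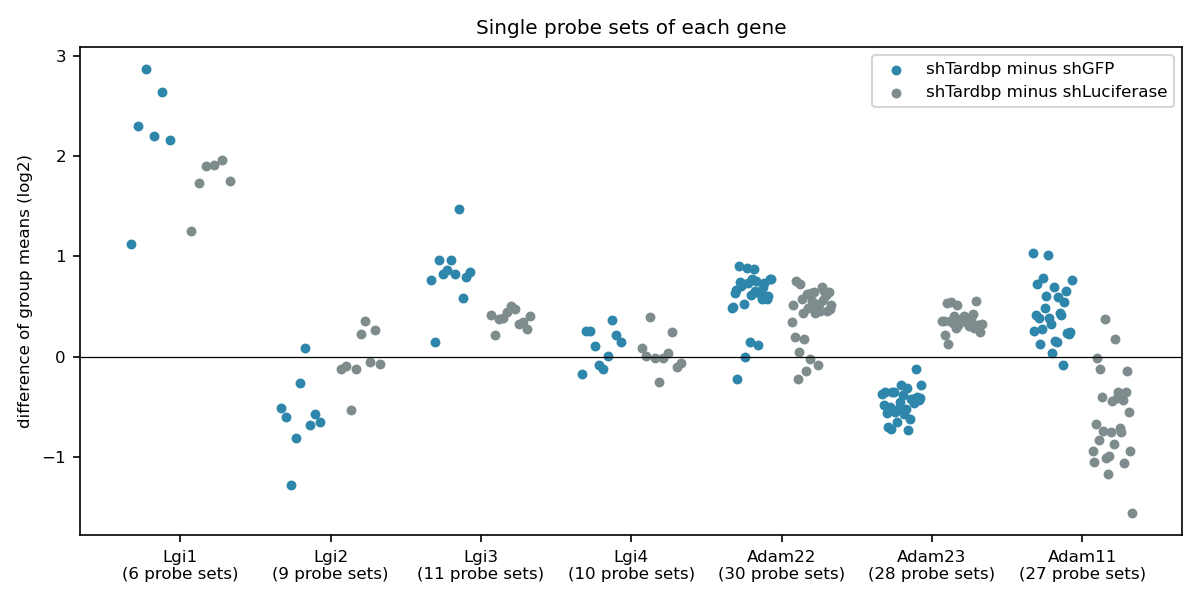
Log2 difference of shTardbp from shGFP (blue) and from shLuciferase (grey) for each probe set (points) of the 7 genes; the vertical axis is a difference of group means. All 6 Lgi1 points of each colour lie above 1, and the 28 Adam23 points lie below 0 against shGFP and above 0 against shLuciferase.

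Usage, meaning how a probe set shifted against the rest of its gene, was asked of the same genes because TDP-43 is known as a regulator of splicing. Of 76 probe sets of Lgi2, Lgi3, Adam22 and Adam23 tested, 0 passed the limma threshold, where 0.879% of the 101898 probe sets tested over all genes passed it. Before adjustment 9 of the 76 had a limma p under 0.05, and the share of all probe sets at that looser cut was not worked out. The closest were 2 of the Adam22 probe sets that did not share the rise, with usage differences of -0.76 (SE 0.159, limma adjusted p = 0.0561) and -0.46 (SE 0.0976, limma adjusted p = 0.0566). The first passed without shGFP 3 (-0.83, limma adjusted p = 0.0384) or with no filter on low signal (limma adjusted p = 0.0448), and the second without shLuciferase 4 (-0.52, limma adjusted p = 0.0333). limma's diffSplice, which pools the spread over a gene's probe sets, called 6 of the 76 (4 in Adam22, 1 in Lgi2 and 1 in Lgi3), against 1.93% of all probe sets. All 6 usage differences were negative (-0.76 to -0.46). The 4 in Adam22 were the probe sets that did not share the rise, with mean levels of 4.59 to 6.58. Those in Lgi3 and Lgi2 had mean levels of 5.49 and 7.29. Whether low signal had a part in these calls was not tested. Adam11 and Lgi4 were below the level filter, and the usage of Lgi1 was not tested. The positions of probe sets were not used, so none is assigned to an exon.

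The differences of neighbouring genes in the genome were set beside those of the 7 genes. For Lgi1, the 10 measured genes on each side had a median difference of 0.01 (from -0.52 for Cep55 to 0.37 for Plce1), with 3 higher and 5 lower. For Adam22 the 20 neighbours had a median of -0.04, with 4 higher and 5 lower. Those of Lgi3 had a median of 0.05, with 2 lower and 7 higher. Bmp1, at 0.59, was among the higher ones, near the 0.60 of Lgi3 itself. The shares over all genes were 13.5% higher and 17% lower. The medians of the other 4 genes' neighbours lay between -0.04 and 0.04. In the plot of neighbours, Lgi1 stands above all of its neighbours. Lgi1 was chosen for this same rise, so its place there is a description and no result about the locus. Lgi3 and Adam22 lie within the range of their neighbours.

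**Figure D4:**
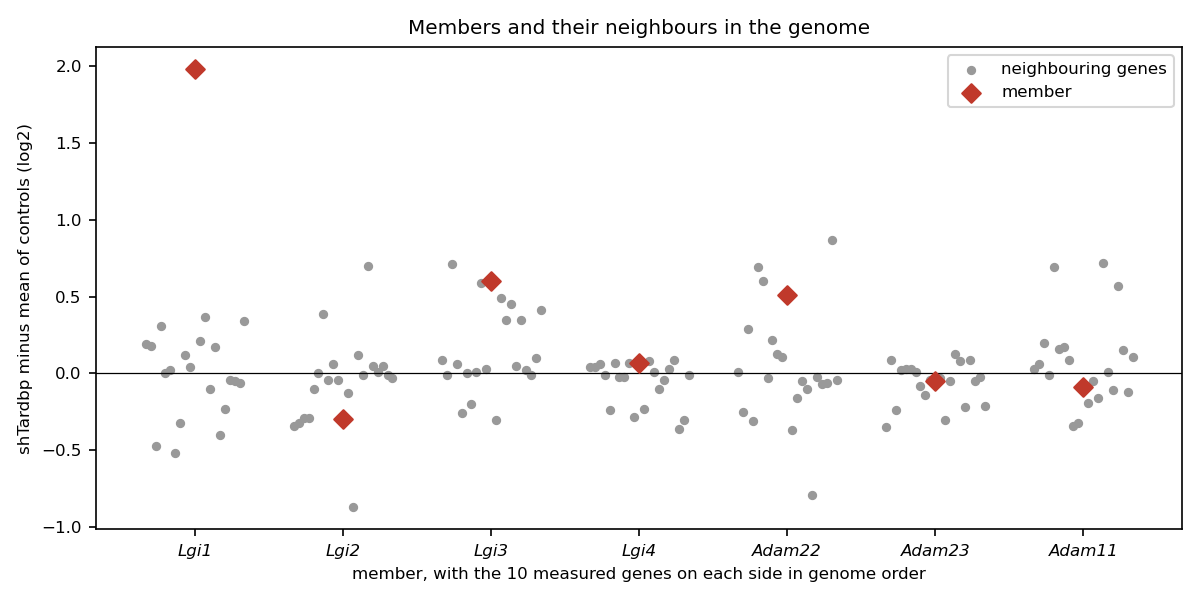
Log2 difference of shTardbp from the mean of both control groups for each of the 7 genes (red diamonds) and the 10 measured genes on each side of it in genome order (grey points). Lgi1, which was chosen for its rise, lies at 1.98 above a highest neighbour of 0.37. Lgi3 at 0.60 has neighbours up to 0.71 and Adam22 at 0.51 has neighbours up to 0.87.

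Genes that act with the LGI proteins and their receptors were taken as lists. Over all 57 measured genes of these lists, 8 were higher in shTardbp than the mean of both control groups, 6 lower and 43 did not pass. The median difference was 0.03. Over all genes 13.5% were higher and 17% lower, with a median of 0.01. Not all of these partner genes passed against each control alone. Of the higher ones, Flot1, Dlg4, Gria2 and Adam33 missed it against shGFP (limma adjusted p = 0.185, 0.0657, 0.271 and 0.0637). Itgav missed it against shLuciferase (limma adjusted p = 0.596), as did the lower genes Dlg1 (0.525) and Adam9 (0.0931). Blocking on the code letter left 8 of the 57 past the threshold, and 15.9% of all genes.

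Of 10 measured genes of the synaptic AMPA receptor complex, 3 were higher, 2 lower and 5 did not pass (median 0.05). Of the 4 measured scaffold genes of the PSD-95 family, 2 were higher and 1 lower, and Dlg3 (SAP102), named after its value was seen, did not pass (-0.09, limma adjusted p = 0.383). Dlg2 (PSD-93) was higher (9.43 ± 0.0662 in shTardbp, 9.22 ± 0.0727 in shGFP and 8.97 ± 0.0229 in shLuciferase, a difference of 0.34, SE 0.0555, limma adjusted p = 0.000356), as was Dlg4, the gene of PSD-95 itself (0.27, limma adjusted p = 0.00828). Dlg1 (SAP97) was lower (-0.20, limma adjusted p = 0.0175). With the code letter as a block Dlg2 (0.31, limma adjusted p = 0.0594), Dlg4 (0.04, limma adjusted p = 0.827) and Dlg1 (-0.10, limma adjusted p = 0.562) lost their calls, and Dlg1 did so without shTardbp 1 (adjusted p = 0.0576) or shTardbp 2 (adjusted p = 0.0566) and changed sign once the shift of its neighbours was subtracted (0.03). Dlg1 also missed the threshold with the median probe set (limma adjusted p = 0.055).

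Cacng4, an auxiliary AMPA receptor subunit, was lower by a log2 difference of -0.47 (8.04 ± 0.104 in shTardbp, 8.62 ± 0.0372 in shGFP and 8.40 ± 0.102 in shLuciferase, SE 0.0622, limma adjusted p = 5.7e-05). The third rise, chosen for naming after its value was seen, was the receptor subunit gene Gria2 (0.39, limma adjusted p = 0.0424). Its call was lost when any of shTardbp 2, 3 or 4, shGFP 3 or shLuciferase 1 or 4 was left out (limma adjusted p from 0.0633 to 0.126), and with the code letter as a block (0.57, limma adjusted p = 0.175), the median probe set (0.119), only brighter probe sets (0.0555) or the neighbour shift subtracted (0.0802).

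Of 10 genes of the axonal Kv1 channel complex, 2 were higher and 8 did not pass (median 0.08). Both rises were adhesion proteins that hold the channels at the axon, Cntn2 (5.71 ± 0.136 in shTardbp, 5.26 ± 0.072 in shGFP and 5.27 ± 0.0956 in shLuciferase, 0.45, SE 0.0694, limma adjusted p = 0.000214) and Cntnap2 (0.34, limma adjusted p = 0.000252). Cntnap2 averaged 4.68 in shTardbp, 4.28 in shGFP and 4.41 in shLuciferase, near the low end of the signal, and lost its call with the code letter as a block (0.24, limma adjusted p = 0.108). The channel and subunit genes Kcna3 (0.21, limma adjusted p = 0.096) and Kcnab2 (0.09, limma adjusted p = 0.275) did not pass. The Kcna3 difference passed without shLuciferase 4 (0.28, limma adjusted p = 0.00952) or with array weights (0.25, limma adjusted p = 0.0154). Kcnab2 passed with the median probe set as the gene value (0.27, limma adjusted p = 0.0209).

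Of 9 other measured partners, 2 were higher, 1 lower and 6 did not pass (median 0.07). The integrin genes Itgb3 and Itgav, whose proteins pair as an integrin that binds ADAM23, moved apart. Itgb3 was lower (-0.64, SE 0.0964, limma adjusted p = 0.000163, or -0.39 with adjusted p = 0.146 with the code letter as a block). Itgav was higher (0.39, limma adjusted p = 0.00184), by 0.69 against shGFP (limma adjusted p = 6.43e-05) and 0.09 against shLuciferase (limma adjusted p = 0.596). Flot1, a membrane raft protein gene, was higher (0.32, limma adjusted p = 0.00633, or 0.0515 when probe sets were combined by their median). The Flot1 difference was 0.17 against shGFP (limma adjusted p = 0.185) and 0.47 against shLuciferase (limma adjusted p = 0.00226). Ywhag, a 14-3-3 protein gene, was at 0.22 (limma adjusted p = 0.0633). The Ywhag difference passed with the code letter as a block (0.47, limma adjusted p = 0.0406) and without shTardbp 4 (0.28, limma adjusted p = 0.0325) or shGFP 2 (0.24, limma adjusted p = 0.0483). It also passed with genes above the median level (limma adjusted p = 0.0404), repeated quantile normalization (0.0498) or eBayes with trend and robust (0.0455).

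Of 26 other measured ADAM genes, 1 was higher, 2 were lower and 23 did not pass (median 0.02), and 14 lay below the 25th percentile on every array. Adam19, a protease that sheds neuregulin, was lower, at 8.15 ± 0.0615 in shTardbp, 8.73 ± 0.0885 in shGFP and 8.96 ± 0.0359 in shLuciferase (-0.70, 1.62-fold, SE 0.0574, limma adjusted p = 1.02e-06). Adam9, another active protease, was lower (-0.19, limma adjusted p = 0.0192), with its call lost without shTardbp 2 (adjusted p = 0.0794). Adam33 was higher (0.21, limma adjusted p = 0.0221), with its call lost without shTardbp 1 (adjusted p = 0.0768) or shTardbp 2 (adjusted p = 0.0737), and Adam8 was at 0.15 (limma adjusted p = 0.12). Neither Adam9 nor Adam33 passed with the code letter as a block (limma adjusted p = 0.243 and 0.31), nor with the median probe set as the gene value (limma adjusted p = 0.213 and 0.274), and Adam33 did not pass over probe sets above the 25th percentile (limma adjusted p = 0.146). Of the 2 other genes with EPTP repeats, Tspear, under its older name C330046G03Rik, was lower (-0.37, SE 0.0719, limma adjusted p = 0.00136), and Gpr98 was at 0.02 (limma adjusted p = 0.86) and below the 25th percentile. The plot of partner genes shows the passing genes on both sides of 0 in 3 of its 4 panels, and in the panel of the Kv1 complex on the higher side.

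**Figure D5:**
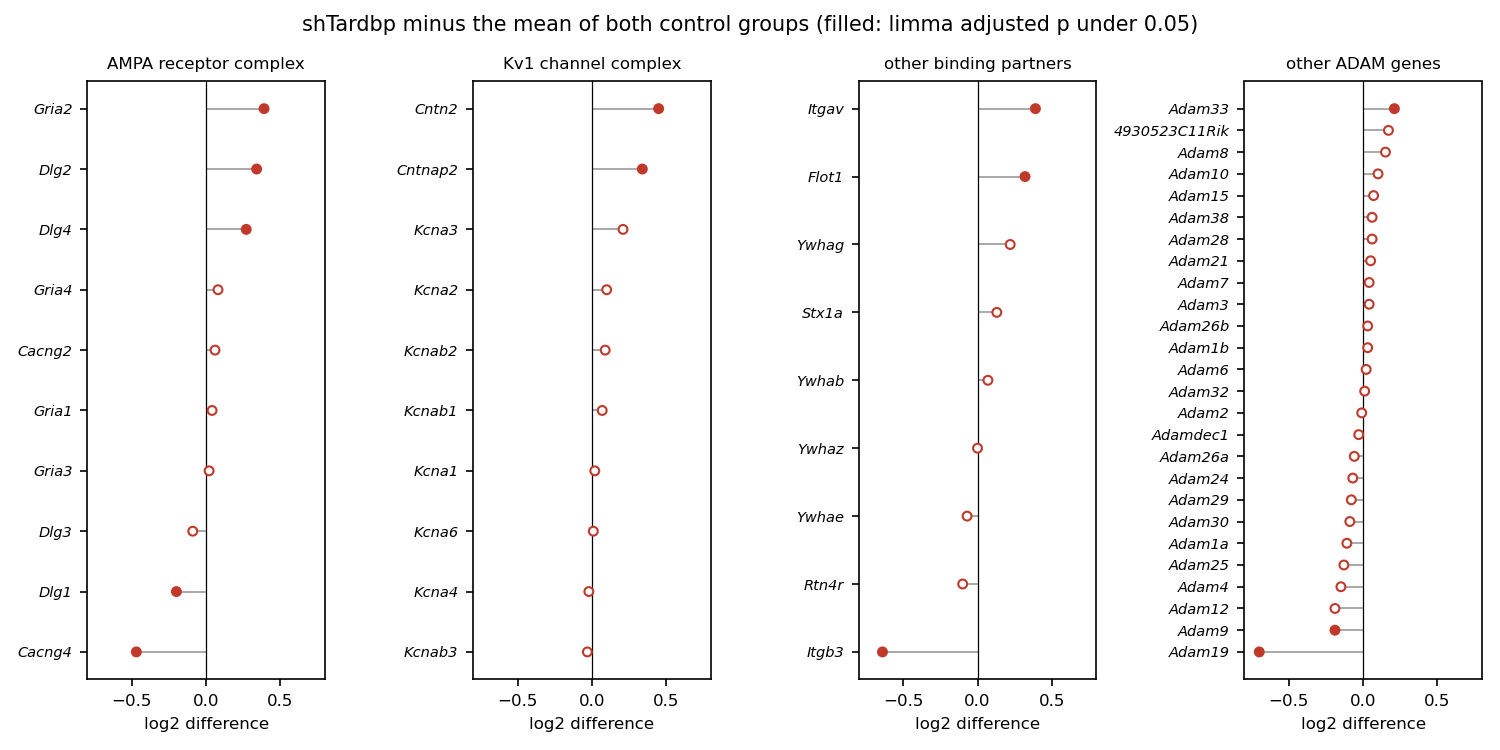
Log2 difference of shTardbp from the mean of both control groups (horizontal axes) for the measured genes of 4 lists, sorted by difference; filled circles passed the limma threshold. Adam19 at -0.70 and Itgb3 at -0.64 are farthest below 0, and Cntn2 at 0.45 is farthest above.

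Cells that depend on the pair of LGI4 and ADAM22 were checked through 9 measured Schwann cell and myelin genes, of which 2 were higher, 0 lower and 7 did not pass (median 0.09). Among all genes 13.5% were higher and 17% lower (median 0.01). Erbb3, the neuregulin receptor of Schwann cells, was higher (0.59 against shGFP and 0.54 against shLuciferase, 0.56 against both, SE 0.0844, limma adjusted p = 0.000165). Mbp, a myelin protein gene, was higher by 0.24 (limma adjusted p = 0.0124), and its call was lost without shTardbp 3 (adjusted p = 0.0569), and the difference was 0.01 once the shift of its neighbours was subtracted (limma adjusted p = 0.92). It did not pass with the code letter as a block (limma adjusted p = 0.256) or the median probe set either (limma adjusted p = 0.296). The mean level of the list was 5.89 to 6.02 in shTardbp arrays, 5.79 to 5.82 in shGFP and 5.78 to 5.89 in shLuciferase, and 2 of its genes, Mag and Gldn, lay below the 25th percentile on every array.

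The label of the cells was set against markers, whose counts stand beside 13.5% higher and 17% lower among all genes. The mean level of 9 measured neuron genes was 9.87 to 10.09 in shTardbp, 9.71 to 9.92 in shGFP and 9.90 to 9.93 in shLuciferase, with 1 higher, Syp of synaptic vesicles (0.69, limma adjusted p = 2.1e-05). Of 7 motor neuron genes 3 lay below the 25th percentile on every array, among them Chat, the enzyme of acetylcholine synthesis, and 2 were higher, the acetylcholine transporter Slc18a3 (0.63, limma adjusted p = 0.000129) and the transcription factor Isl2 (0.26, limma adjusted p = 0.0135, or 0.0578 without shTardbp 4). Neither passed with the code letter as a block (limma adjusted p = 0.0571 and 0.316), and Isl2 did not with the median probe set (limma adjusted p = 0.458). The Slc18a3 value rested on 1 probe set. The mean level of the list was 6.07 to 6.22 in shTardbp, 5.95 to 6.03 in shGFP and 5.87 to 5.92 in shLuciferase. No gene passed in the lists of astrocytes (6 measured), oligodendrocytes (5) or muscle (5). Of 6 fibroblast genes Pdgfrb was higher than the mean of both controls (0.41, limma adjusted p = 0.000753, or 0.209 with the code letter as a block). It averaged 5.86 in shTardbp, 5.82 in shGFP and 5.07 in shLuciferase. Its difference was 0.04 against shGFP (limma adjusted p = 0.822) and 0.79 against shLuciferase (limma adjusted p = 2.85e-05). Dcn was lower (-1.61, with 5.35 in shTardbp, 7.53 in shGFP and 6.38 in shLuciferase). The list's mean level was 4.98 to 5.11, 5.34 to 5.43 and 5.07 to 5.19 in these groups. The part of these marker differences in those of the Lgi and ADAM genes was not tested.

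A standard deviation of at least 0.5 over the 11 arrays was reached by 328 genes, Lgi1 included. Unnamed clones, predicted genes and Riken cDNAs were left out of these. Of the rest, the genes most like Lgi1 were Bambi (Pearson r = 0.993), the decoy receptor gene of TGF-beta signals, and the potassium channel subunit gene Kcnmb1 (0.984). Next came the synaptic vesicle gene Sv2a (0.983), Mupcdh (0.982) and the surface protein gene Cd248 (0.980). The arrays fall into 3 groups, so these values mainly describe genes with the same order of group means. Bambi averaged 8.68 in shTardbp, 6.25 in shGFP and 6.70 in shLuciferase, and Sv2a 9.04, 7.88 and 8.07.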

How the data were processed

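RNA of 11 NSC34 samples had been hybridised to Affymetrix whole-transcript arrays. The table holds 194293 probe sets as log2 values, which the authors made with RMA and Partek per the submitters' processing notes (no version given). Their genome build is not stated. The platform annotation gave 179496 probe sets 1 gene symbol, 1328 several and 13469 none, and those with 1 were averaged per gene (median 9).

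limma 3.58.1 in R 4.3.3 (lmFit, eBayes) fitted 3 group means to each of 15803 genes, unfiltered, with Benjamini-Hochberg adjustment over the whole table at 0.05. Usage was the value of a probe set less the mean of its gene's others, tested with limma where signal was above the 25th percentile and the gene above the median of 6.41 with 3 or more such probe sets. The tests were first run on simulated data.

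The 7 genes and all lists were chosen with earlier results of these data known. Beyond them and Tardbp, the text names per list up to 4 genes of smallest adjusted p, and the 5 named genes most correlated with Lgi1 (unnamed clones, predicted genes and Riken cDNAs excluded); any other name was picked once its value was known. Lists of partners held 66 genes, of which 57 were measured. Neighbours follow RefSeq gene order in GRCm38.p6 (15743 genes placed). Replicate numbers were not used as pairs. The number of arrays limits the precision. Alternatives are given in the closing section.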

Additional observations from a re-analysis of the deposited data

Results flagged for a closer look

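Within the 4 shTardbp arrays, Lgi1 was at 9.74 in shTardbp 2 and at 9.50, 9.53 and 9.52 in the others, so that 1 array stood apart from 3 that lay close together. The gap to the nearest of the others was 0.902 of the whole range, above Dixon's critical value of 0.829 for 4 samples. Of 14 groups of 4 arrays examined this was the one to exceed it, and chance exceeds it in about 1 of 20 groups. With shTardbp 2 left out, the Lgi1 difference from both controls was 1.93.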

How the results depend on the processing

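Alternatives were 10 settings that kept all arrays and the leaving out of each of the 11 arrays in turn. The calls of Lgi3 (0.48 to 0.64) and Adam22 (0.49 to 0.63) against both controls kept their direction and their side of the threshold under all of them, and Lgi1 ranged from 1.73 (code letter as a block) to 2.22 (median of the probe sets). With the code letter as a block, 2 members rather than 4 passed against each control alone, 8 partner genes rather than 14, and 2509 rather than 4825 of all genes; this fit rests on shLuciferase 4 as the one control array that shares the letter of shTardbp. With the median of the probe sets, 3 members rather than 5 passed between the controls, and 962 of all genes rather than 1752, against 2916 with array weights. Leaving out arrays gave 3 members against both controls in each case, 4 against each control alone, 4 to 5 between the controls, 10 to 15 partner genes and 0 to 1 probe sets for usage. Usage called 1 probe set with no filter and 6 with diffSplice. Dlg1 turned to 0.03 with the shift of neighbours subtracted.

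Same-numbered arrays of different groups correlated at -0.056 to 0.263 in their deviations from the group means (8 pairs, median 0.118, 5 over 0.1), against a median of -0.013 for 32 pairs of unlike number (8 over 0.1). As not every same-numbered pair was over 0.1, the arrays were not treated as paired, and a partial sharing by number was not tested. With the replicate number as a block, 3 members passed against both controls, 4 against each control alone, 4 between the controls and 15 partner genes, 0 probe sets passed for usage, and 1000 of all genes passed between the controls rather than 1752. The Lgi1 call between the controls was lost under this block (-0.38, limma adjusted p = 0.132), and Ywhag passed (0.23, limma adjusted p = 0.0211). The lack of detection calls limits statements on Lgi4, and few arrays limit the precision of the others.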
